A study of Mus musculus with 16 samples.

Results

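The 34 genes described here encode the phagocyte NADPH oxidase and the enzymes that remove or repair what it makes. They were chosen by symbol as a list of named genes, and all 34 were found among the 55385 genes of the deposited count table. They fall into 8 classes: the phagocyte oxidase (Cybb, Cyba, Ncf1, Ncf4, Rac2), superoxide dismutases and catalase (Sod1, Sod2, Cat), glutathione peroxidases (Gpx1, Gpx4), peroxiredoxins with sulfiredoxin (Prdx1 to Prdx6, Srxn1), the thioredoxin system (Txn1, Txn2, Txnrd1, Txnip), glutathione synthesis and recycling (Slc7a11, Gclc, Gclm, Gss, Gsr, Glrx), glutathione transferases (Mgst1, Gstm1, Gsto1), and the transcription factor NRF2 with its inhibitor and other targets (Nfe2l2, Keap1, Nqo1, Sesn2).

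RNA from CD11b+ cells of the mouse brain was sequenced in bulk, with 4 libraries in each of 4 genotypes: WT, Card9-/-, 5xFAD and Card9-/-5xFAD. All mice were untreated, 20 weeks old and from crosses with C57BL/6J. The study's methods name female 5xFAD mice among the stock that was crossed. 5xFAD mice carry mutant human transgenes that are driven by the neuronal Thy1 promoter and lead to amyloid-β plaques, whereas CARD9 is a signaling adaptor of myeloid cells that lies downstream of SYK. Cells were freed from the brain with papain at a warm temperature after removal of the meninges and choroid plexus, and were retained on CD11b magnetic beads, which hold microglia and every other CD11b+ cell. The comparisons ask how far the transgenes, the Card9 genotype and their combination moved transcripts of oxidant production and defense in these cells.

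In phagocytes, the membrane pair CYBB and CYBA forms the electron channel of the NADPH oxidase, and the cytosolic subunits NCF1 and NCF4 with the GTPase RAC2 switch it on to release superoxide. Superoxide dismutases turn superoxide into hydrogen peroxide, which catalase, the glutathione peroxidases and the peroxiredoxins remove, with glutathione and thioredoxin as the electron donors that are restored by NADPH. NRF2 induces many of these enzymes by binding antioxidant response elements, and KEAP1 marks NRF2 for degradation when oxidants are low.

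The core letters of the antioxidant response element, TGACNNNGC on either strand, were searched in RefSeq promoter windows (build GRCm38.p6) from 250 bases before to 50 bases after each gene start. Of the 34 genes, 29 had such a window, and Gclc, Gsr, Ncf4, Prdx6 and Rac2 did not. The core stood in 8 of these 29 genes (27.6%), against 14% of the 27025 genes with a window and 12.4% of all 32851 windows. The 8 matches are given here 5′ to 3′ along the gene, with the core in capitals, since NRF2 binds elements with this core.
Nfe2l2 (chr2:75704885-75704913, minus strand): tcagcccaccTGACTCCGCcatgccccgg
Srxn1 (chr2:152105542-152105570, plus strand): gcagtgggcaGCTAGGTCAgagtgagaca
Gclm (chr3:122245413-122245441, plus strand): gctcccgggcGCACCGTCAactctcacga
Prdx1 (chr4:116685456-116685484, plus strand): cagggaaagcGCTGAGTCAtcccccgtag
Sesn2 (chr4:132510474-132510502, minus strand): cgcagcgggcTGACAGAGCcgggcgagcg
Mgst1 (chr6:138140461-138140489, plus strand): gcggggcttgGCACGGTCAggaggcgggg
Txnrd1 (chr10:82859104-82859132, plus strand): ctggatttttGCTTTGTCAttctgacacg
Sod1 (chr16:90220696-90220724, plus strand): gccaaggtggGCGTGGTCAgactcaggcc
The Nfe2l2 match began 240 bases, the Gclm match 134 bases and the Prdx1 match 133 bases before the gene start, and the Srxn1 match lay 28 bases after it. Among the 10 genes that passed the test for the transgenes, Prdx6 had no window, and of the other 9 Prdx1 held the core. The 250 bases before the starts of Prdx4 and Gsto1 are given because these 2 genes rose most, and those of Prdx1 because they hold the core, in capitals. The RefSeq starts of several of these genes, among them Prdx4, Txnrd1, Mgst1, Sesn2 and Prdx1, lie inside their longer GENCODE gene models. The matches of Txnrd1, Mgst1 and Sesn2 thus stand inside those models.
Prdx4 (chrX:155338461-155338710, minus strand): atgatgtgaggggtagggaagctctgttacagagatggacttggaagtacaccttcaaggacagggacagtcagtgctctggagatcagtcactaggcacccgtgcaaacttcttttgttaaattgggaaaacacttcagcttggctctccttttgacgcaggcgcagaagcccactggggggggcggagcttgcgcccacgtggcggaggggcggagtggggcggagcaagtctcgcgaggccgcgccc
Gsto1 (chr19:47854723-47854972, plus strand): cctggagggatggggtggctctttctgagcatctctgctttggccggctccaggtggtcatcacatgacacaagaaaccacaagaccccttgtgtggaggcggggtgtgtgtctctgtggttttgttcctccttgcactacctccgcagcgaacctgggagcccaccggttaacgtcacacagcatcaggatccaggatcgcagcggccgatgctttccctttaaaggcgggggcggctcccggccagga
Prdx1 (chr4:116685349-116685598, plus strand): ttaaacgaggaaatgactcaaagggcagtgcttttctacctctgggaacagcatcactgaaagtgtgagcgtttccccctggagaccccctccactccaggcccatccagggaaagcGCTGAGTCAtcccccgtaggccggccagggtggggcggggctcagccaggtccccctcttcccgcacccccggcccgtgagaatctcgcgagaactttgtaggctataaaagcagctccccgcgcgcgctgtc
A match to these letters is a description of the sequence, and binding was not measured.

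Total counts ran from 2970148 to 19333325 per library, and the 34 genes took 0.527% to 1.10% of them. Levels are given as counts per 1000000 counts of the library (CPM) after TMM scaling. The labelled cell type was met by its markers: the 12 microglial markers summed to 22528 to 43898 CPM, and the 10 neuronal markers to 3.19 to 23.2 CPM. Other lists were above the neuronal one. Oligodendrocyte markers summed to 194 to 946 CPM (Mbp alone 103 to 593) and astrocyte markers to 175 to 378 CPM (Slc1a3 alone 139 to 311). B cell markers summed to 456 to 1208 CPM (Ighm alone 361 to 1074). Card9 itself was at 13.6, 51.3, 43.2 and 39.3 CPM in WT, 31.6, 34.8, 33.2 and 16.7 CPM in Card9-/-, 15.6, 32.6, 29.1 and 33.5 CPM in 5xFAD, with 26.6, 33.7, 9.73 and 10.8 CPM in Card9-/-5xFAD. Its level in the libraries labelled Card9-/- thus overlapped that in the others (log2 fold change −0.39 ± 0.32 SE, edgeR adjusted p = 0.678). Counts of the whole gene do not show which exons were read, so they do not check these labels, and Card9-/- below is the label of a library.

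Of the 3 libraries with the highest summed list of neutrophil markers, 1 was WT (replicate 1), 1 Card9-/- (replicate 4) and 1 Card9-/-5xFAD (replicate 4). All 11 neutrophil markers were listed, and their sum was 3878, 6558 and 6295 CPM in these 3 libraries, within ranges of 1478 to 3878 CPM in WT, 1647 to 6558 CPM in Card9-/-, 1043 to 2351 CPM in 5xFAD and 743 to 6295 CPM in Card9-/-5xFAD. S100a9 (1606, 3298 and 2745 CPM), S100a8 (1019, 1790 and 1744 CPM) and Retnlg (651, 751 and 612 CPM) carried most of it and were higher there than in any other library. The other genes of the list did not share one direction. Camp was the highest of its genotype in Card9-/- replicate 4 (267 CPM) and Card9-/-5xFAD replicate 4 (614 CPM) and not in WT replicate 1 (165 CPM). Ly6g, a defining marker, was at 5.11, 3.6 and 2.8 CPM there and at 0.869 to 7.94 CPM over all libraries. Ltf was at 11.3, 38.9 and 21.2 CPM, against 83.4 to 171 in the other WT, 107 to 254 in the other Card9-/- and 2.09 to 59.6 CPM in the other Card9-/-5xFAD libraries. Ngp, Mmp8, Mmp9 and Csf3r were the lowest of their genotype in WT replicate 1 and Card9-/- replicate 4. These 3 libraries also stood apart on other lists. The choroid plexus or ependymal markers summed to 1733, 3010 and 1207 CPM and the border-associated macrophage markers to 1762, 1964 and 1863 CPM, each the highest of its genotype. In the border-associated macrophage list, Pf4 (759, 1053 and 1070 CPM) and Ms4a7 (301, 245 and 246 CPM) were the highest of their genotype in each. Other genes of that list did not share this direction. Clec10a, Folr2 and Siglec1 were the lowest of their genotype in WT replicate 1 and Card9-/- replicate 4. In Card9-/-5xFAD replicate 4, Clec10a was the highest. The microglial markers summed to 24609, 22528 and 26272 CPM, each the lowest of its genotype. The genes of this list did not share one direction either. Aif1 (3300, 4365 and 6034 CPM) and Itgam (611, 395 and 544 CPM) were the highest of their genotype in each. The part of these cell types in the results was not tested, and results are given with and without these 3 libraries.

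Per kilobase of the longest principal transcript, the members covered a wide range. Cyba had the highest mean over the 16 libraries (2107 CPM per kb), followed by Gpx1 (1670), Gpx4 (378), Txn1 (323) and Prdx1 (266). The other oxidase subunits were lower on this scale, with Rac2 at 111, Ncf1 at 110, Ncf4 at 85.3 and Cybb, the catalytic subunit, at 25.3 CPM per kb. Among the NRF2 genes, Nfe2l2 itself had 162 CPM per kb. Its targets among the members were spread over the range. Txnrd1 (8.32), Gclm (3.72), Srxn1 (2.88) and Slc7a11 (1.29) were among the 7 lowest members. Txn1 (323) and Prdx1 (266) stood near the top, with Gstm1 (33.6), Gsr (13.1) and Gclc (11.4) between. Nqo1 was lowest at 0.451 CPM per kb, with 0 to 1.96 CPM in single libraries, and was the 1 member not tested, so that 33 were. The ranges of neighbors in this order overlapped between libraries, and a single length was used per gene.

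**Figure D1:**
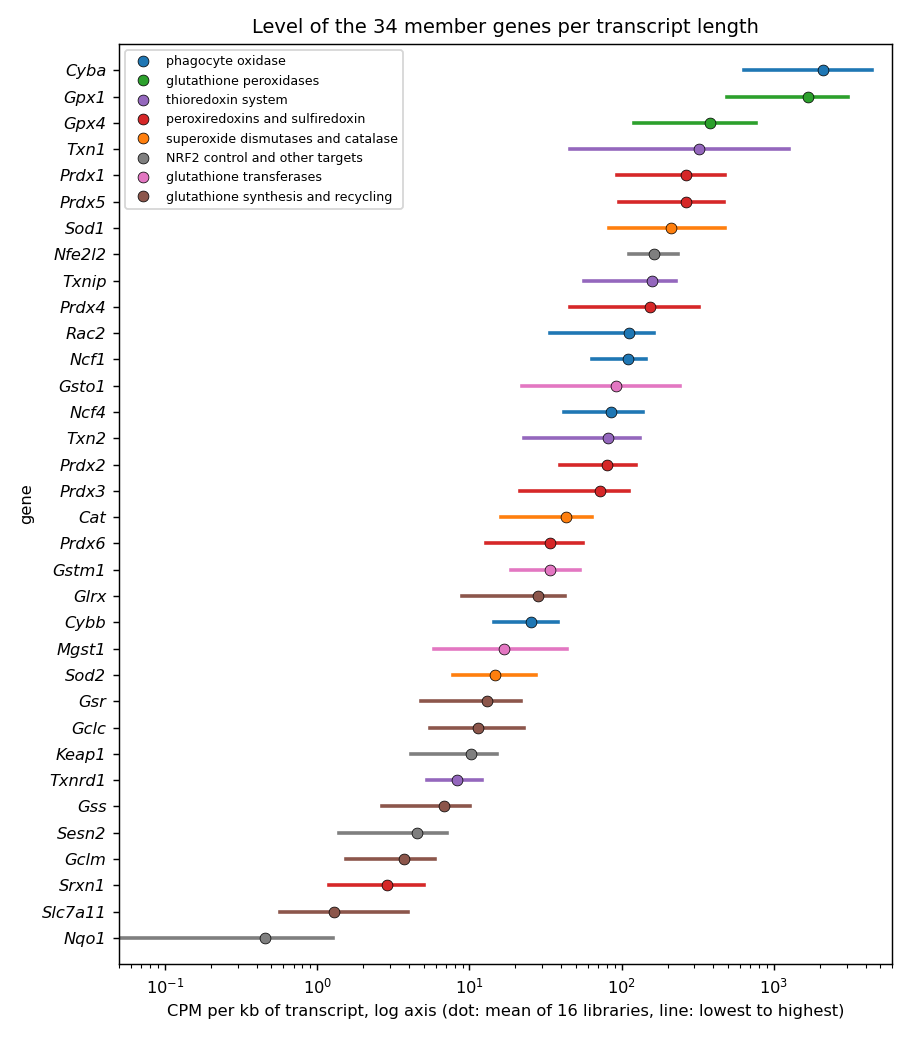
CPM per kilobase of transcript (log axis) for the 34 genes, colored by class, with the mean of 16 libraries as a dot and the lowest to highest library as a line (the line of Nqo1 runs to 0 and is cut at the edge). Cyba and Gpx1 stand above all others, and Srxn1, Slc7a11 and Nqo1 close the order.

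The presence of the transgenes was compared first, as the mean of 5xFAD against WT and Card9-/-5xFAD against Card9-/-. Of the 33 members tested, 10 passed the threshold (edgeR, adjusted p under 0.1): 9 rose, namely Cyba, Sod2, Gpx1, Gpx4, Prdx1, Prdx2, Prdx4, Prdx6 and Gsto1, and Txnip fell. That is 30.3% of the members, whereas 11.3% of all 14513 genes passed, 5.62% higher and 5.73% lower. These shares, and those of further genes below, only describe the lists, which were chosen with earlier results of these data known. The median log2 fold change was 0.34 over the members and −0.15 over all genes, and 63.6% of members against 38.3% of all genes lay above 0. When each library was left out in turn, Gpx4, Prdx1, Prdx4 and Gsto1 passed in all 16 fits, Cyba was lost in 1 (without WT replicate 4), and Txnip, Sod2, Gpx1, Prdx2 and Prdx6 were lost in 7, 9, 10, 10 and 11 fits. The number of members called then ran from 4 without WT replicate 4 to 13 without Card9-/- replicate 4. In bulk RNA, fewer cells of a type and less RNA per cell cannot be told apart.

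**Figure D2:**
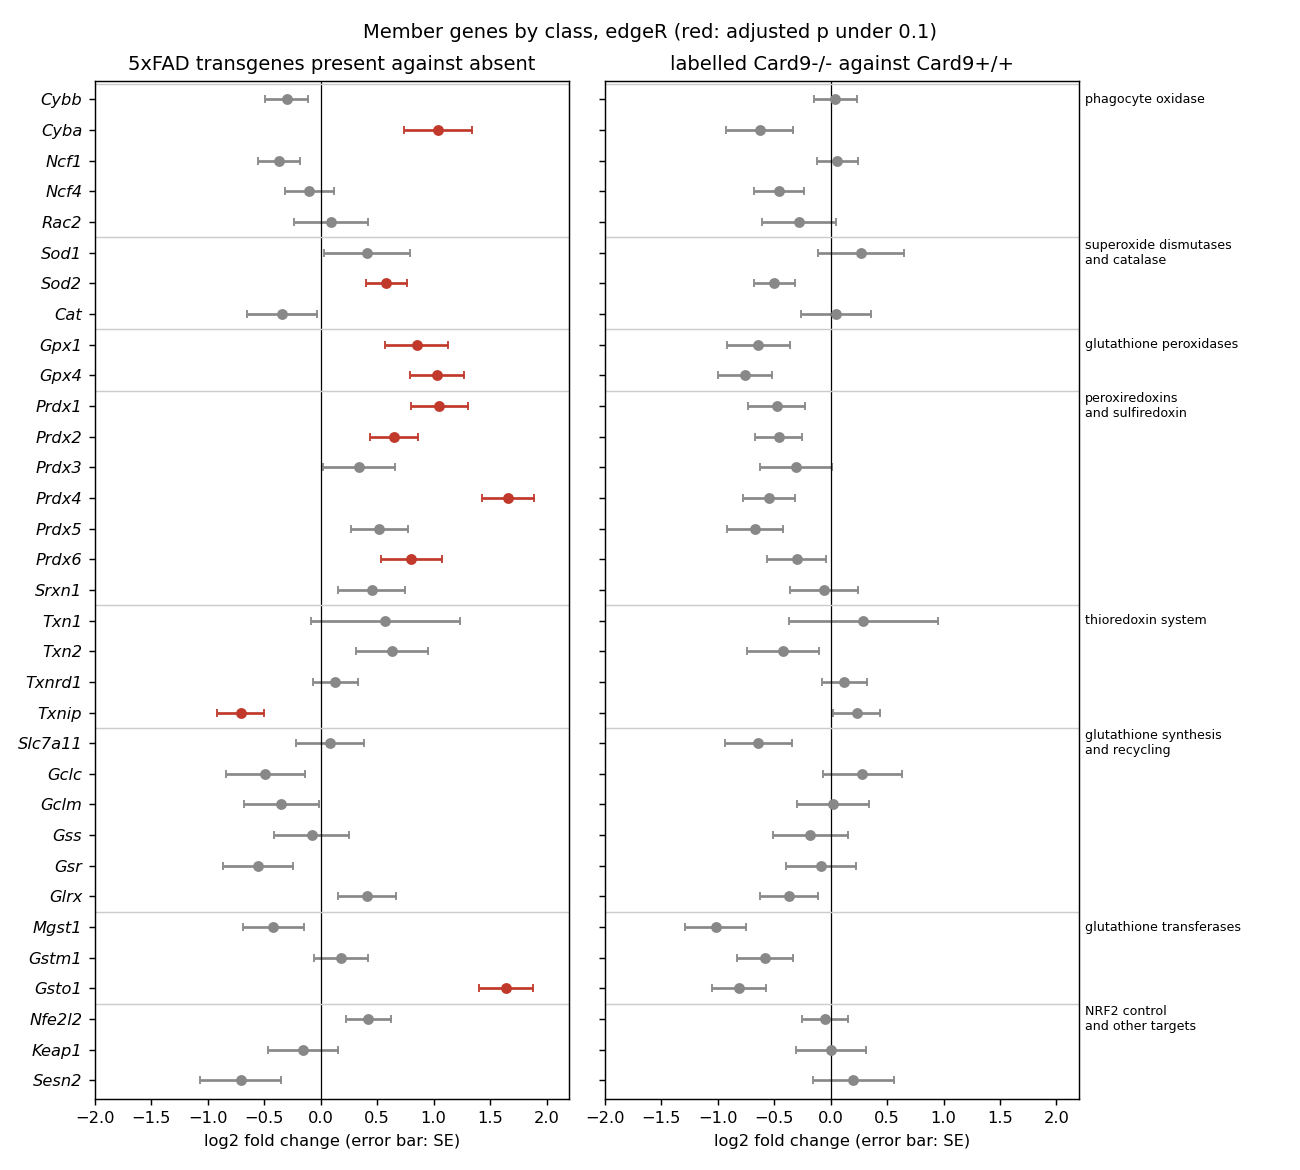
log2 fold change with its SE for the 33 genes tested, by class, for the transgenes (left) and for the labelled Card9 genotype (right), red where the adjusted p was under 0.1. On the left all 7 peroxiredoxin and sulfiredoxin genes lie above 0, with Prdx4 highest at 1.66, and on the right no gene is red.

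Within the phagocyte oxidase, Cyba, which encodes the stabilizing membrane subunit of the oxidase, rose 2.06-fold with the transgenes (log2 fold change 1.04 ± 0.30 SE, edgeR adjusted p = 0.0475). Cyba (chr8:122424776-122432930, mm10) was at 2523, 1007, 1190 and 814 CPM in WT, 825, 476, 732 and 872 in Card9-/-, 2894, 2177, 2594 and 1607 in 5xFAD, with 1013, 1151, 1934 and 3279 in Card9-/-5xFAD. All Card9-/-5xFAD libraries were above all Card9-/- libraries, while WT replicate 1 overlapped the 5xFAD range. The other 4 subunits did not pass: Cybb had a log2 fold change of −0.30 ± 0.19, Ncf1 of −0.37 ± 0.19, Ncf4 of −0.10 ± 0.22 and Rac2 of 0.09 ± 0.33 (SE, lowest edgeR adjusted p = 0.249, for Ncf1). The 4 5xFAD libraries had less Cybb (92.3 to 110 CPM) than the 4 WT libraries (112 to 180 CPM), without a call. Thus 1 of 5 oxidase members was called, and the class median was −0.10. With the length slope of each library as a covariate, a measure described further on, Cyba did not pass (0.54 ± 0.22 SE, edgeR adjusted p = 0.108), which leaves 0 of 5.

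The manganese superoxide dismutase Sod2, which works in mitochondria, rose 1.49-fold (0.58 ± 0.18, edgeR adjusted p = 0.0682). Its levels were 102, 78.5, 89.8 and 66.3 CPM in WT, 55.4, 59.3, 63.1 and 45.5 in Card9-/-, 159, 122, 110 and 81.3 in 5xFAD, with 77, 78.8, 120 and 79.7 in Card9-/-5xFAD. Every Card9-/-5xFAD library was above every Card9-/- library, and 5xFAD overlapped WT through its replicate 4. Sod1, the cytosolic dismutase and the most abundant of this class in CPM, was at 207, 62.6, 72.7 and 85.7 CPM in WT, 84.3, 60.8, 53.2 and 296 in Card9-/-, 194, 111, 129 and 108 in 5xFAD, with 137, 102, 145 and 307 in Card9-/-5xFAD. Its 3 highest libraries were the 3 with the highest S100a8 and S100a9, and it did not pass (0.41 ± 0.38, edgeR adjusted p = 0.553). Catalase (Cat) had a log2 fold change of −0.34 ± 0.31.

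Both glutathione peroxidases rose. Gpx4, which reduces lipid peroxides in membranes, rose 2.04-fold (1.03 ± 0.24 SE, edgeR adjusted p = 0.0176). Gpx4 (chr10:80047166-80056439) was at 534, 285, 313 and 217 CPM in WT, 186, 116, 188 and 144 in Card9-/-, 730, 517, 585 and 364 in 5xFAD, with 282, 301, 502 and 539 in Card9-/-5xFAD. Card9-/-5xFAD lay above Card9-/- in all libraries, and WT replicate 1 alone reached into the 5xFAD range. Gpx1, the main cytosolic glutathione peroxidase, rose 1.8-fold (0.85 ± 0.28, edgeR adjusted p = 0.0807). Gpx1 was at 3030, 1271, 1458 and 1294 CPM in WT, 1149, 525, 934 and 922 in Card9-/-, 3281, 2352, 2451 and 1800 in 5xFAD, with 1173, 1335, 2382 and 3282 in Card9-/-5xFAD. In WT, replicate 1 stood far above the other 3.

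The peroxiredoxins, thiol enzymes that reduce peroxides, were the class with the most calls: 4 of 7 members rose, and all 7 had a positive fold change (median 0.65). Prdx4, the peroxiredoxin of the endoplasmic reticulum, had the largest rise of all members at 3.16-fold (1.66 ± 0.23 SE, edgeR adjusted p = 0.000343). Prdx4 (chrX:155323918-155340754) was at 60.4, 92.6, 111 and 86 CPM in WT, 65.7, 46, 77 and 45.1 in Card9-/-, 318, 294, 275 and 199 in 5xFAD, with 192, 209, 262 and 90.5 in Card9-/-5xFAD. In both Card9 genotypes every library with the transgenes was above every library without them, and 7 of the 8 were above all 8 without.

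Prdx1, an abundant cytosolic peroxiredoxin, rose 2.07-fold (1.05 ± 0.25 SE, edgeR adjusted p = 0.0207). Prdx1 (chr4:116685544-116700822) was at 296, 525, 585 and 447 CPM in WT, 416, 282, 417 and 215 in Card9-/-, 834, 1088, 1074 and 831 in 5xFAD, with 744, 745, 971 and 289 in Card9-/-5xFAD. Except Card9-/-5xFAD replicate 4, all libraries with the transgenes were above all without. Prdx6, which also reduces phospholipid hydroperoxides, rose 1.74-fold (0.80 ± 0.27, edgeR adjusted p = 0.0832). Its levels were 30.5, 77, 88.8 and 66.9 CPM in WT, 58.5, 58.3, 62.1 and 31.4 in Card9-/-, 85.5, 133, 133 and 101 in 5xFAD, with 107, 96.2, 128 and 39.6 in Card9-/-5xFAD. Prdx6 was above all libraries without the transgenes in 6 of the 8 with them.

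Prdx2, a further cytosolic peroxiredoxin, rose 1.57-fold (0.65 ± 0.21, edgeR adjusted p = 0.0728). It was at 98.9, 136, 148 and 105 CPM in WT, 83.2, 64.8, 109 and 63.5 in Card9-/-, 175, 179, 201 and 134 in 5xFAD, with 152, 128, 195 and 80.1 in Card9-/-5xFAD. The groups overlapped in both Card9 genotypes, and part of Prdx2 overlaps Junb and Rnaseh2a on the other strand, whose reads cannot be told apart without a strand setting. The mitochondrial Prdx3 (0.34 ± 0.32), Prdx5 (0.52 ± 0.25) and Srxn1, which repairs overoxidized peroxiredoxins (0.45 ± 0.30), did not pass. Prdx5 also overlaps Trmt112 on the other strand.

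In the thioredoxin system, Txnip, which binds and inhibits thioredoxin and limits glucose uptake, fell by 0.71 on the log2 scale (SE 0.21, edgeR adjusted p = 0.0554). Txnip (chr3:96557957-96561883) was at 419, 618, 586 and 631 CPM in WT, 602, 476, 604 and 462 in Card9-/-, 157, 256, 299 and 401 in 5xFAD, with 453, 511, 345 and 310 in Card9-/-5xFAD. All 5xFAD libraries were below all WT libraries, whereas Card9-/-5xFAD overlapped Card9-/-. Txnip shares exon sequence with Gm15441 on the other strand. The thioredoxins Txn1 (0.57 ± 0.66 SE) and Txn2 (0.63 ± 0.32 SE) and the reductase Txnrd1 (0.13 ± 0.20 SE) did not pass, and Txn1 had the largest SE of all members.

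No member of glutathione synthesis and recycling passed (0 of 6, also 0 with an unadjusted p under 0.05 in edgeR), and DESeq2 called none of them either. Gclc, the catalytic subunit of the rate-limiting ligase and highest of this class in CPM, was at 37.3, 31.7, 30.1 and 78.4 CPM in WT, 64.4, 75.1, 20.3 and 25.5 in Card9-/-, 19, 20.4, 23.9 and 45.5 in 5xFAD, with 70.6, 38.7, 22.1 and 20.8 in Card9-/-5xFAD. Its libraries varied more within a genotype than between them (−0.49 ± 0.35). Log2 fold changes of the class ran from −0.56 for the glutathione reductase Gsr to 0.41 for the glutaredoxin Glrx. The cystine transporter Slc7a11 had 0.08 ± 0.30, and its long transcript contains repeats found in other genes.

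Among the glutathione transferases, Gsto1, an omega-class enzyme with thiol transferase activity, rose 3.11-fold (1.64 ± 0.24 SE, edgeR adjusted p = 0.000586). Gsto1 (chr19:47854970-47864790) was at 77.6, 59.3, 91.6 and 52.7 CPM in WT, 37.8, 31.5, 53.1 and 26.2 in Card9-/-, 286, 208, 193 and 123 in 5xFAD, with 112, 108, 197 and 81.7 in Card9-/-5xFAD. As for Prdx4, the groups did not overlap in either Card9 genotype, and 7 of 8 libraries with the transgenes exceeded all 8 without. Mgst1 (−0.42 ± 0.27) and Gstm1 (0.18 ± 0.24) did not pass.

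The NRF2 genes were not called (0 of 3 tested by edgeR, 1 with an unadjusted p under 0.05, and 0 by DESeq2). Nfe2l2, which encodes NRF2, was at 283, 352, 406 and 314 CPM in WT, 277, 274, 319 and 519 in Card9-/-, 507, 512, 501 and 393 in 5xFAD, with 333, 374, 465 and 577 in Card9-/-5xFAD. Apart from Card9-/- replicate 4, the libraries without the transgenes stayed at or below 406 CPM, and 5 of the 8 with them were above that (0.42 ± 0.20 SE, edgeR adjusted p = 0.217). Keap1 had a log2 fold change of −0.16 ± 0.31 and the stress-induced sestrin Sesn2 of −0.71 ± 0.36.

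**Figure D3:**
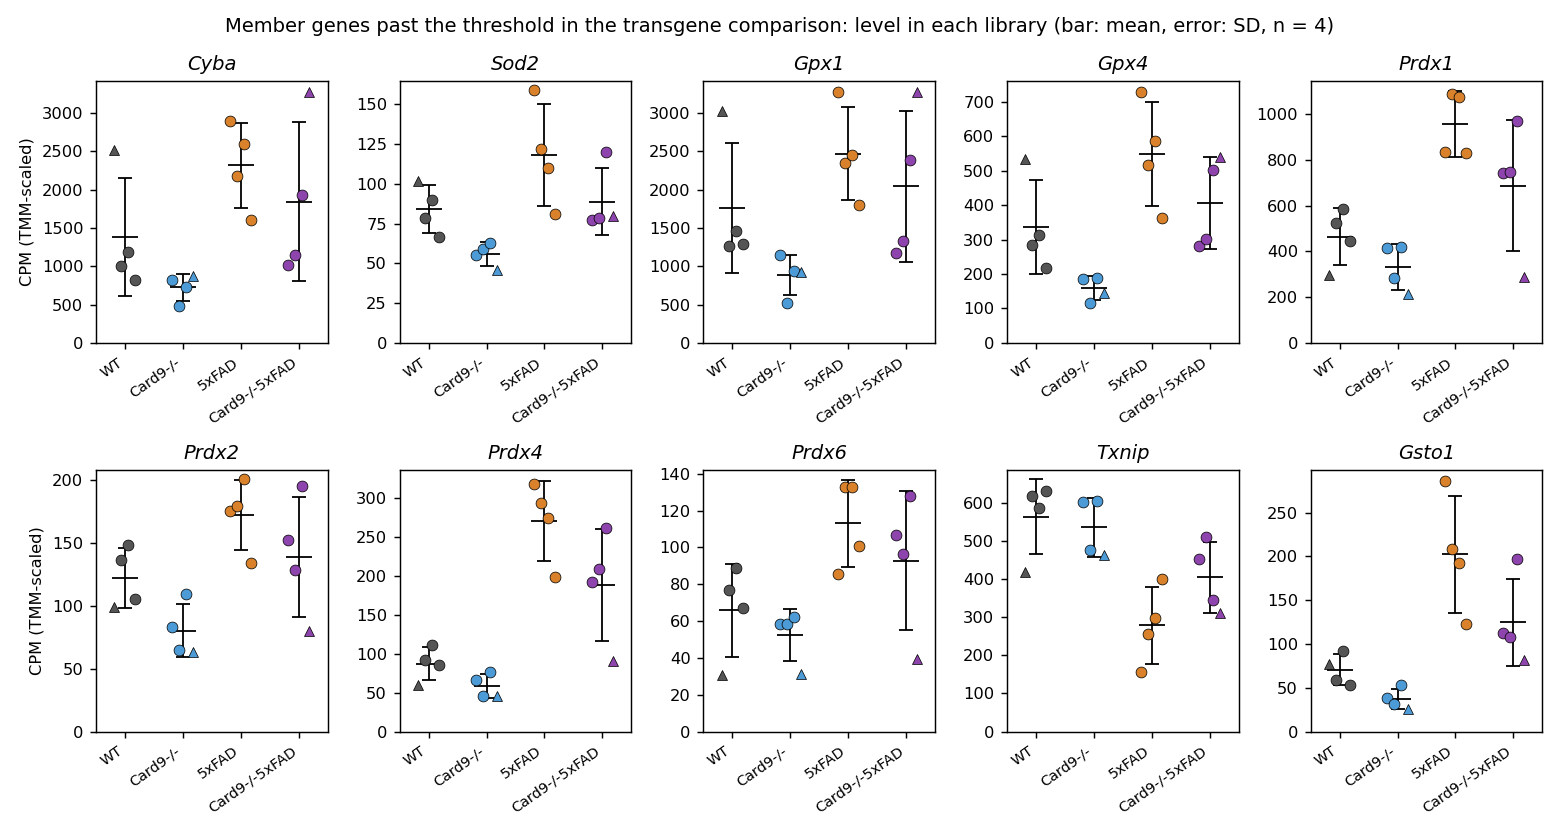
TMM-scaled CPM of the 10 members that passed for the transgenes, in each library, with the mean and SD of each genotype (n = 4), triangles marking the 3 libraries with the highest S100a8 and S100a9. In Prdx4 and Gsto1 the 5xFAD and Card9-/-5xFAD points lie above those of WT and Card9-/- respectively without overlap, and in Txnip the 5xFAD points lie below WT.

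Summed markers of some other cell types were lower in the libraries with the transgenes. The 10 endothelial markers, all listed, summed to 133 to 186 CPM in WT, 101 to 161 in Card9-/-, 82.7 to 113 in 5xFAD and 61.9 to 97.7 in Card9-/-5xFAD. These sums did not overlap in either Card9 genotype, but the genes of the list did not share the same direction. Pecam1 was lower with the transgenes. Flt1 went the other way in most libraries. It was at 32.9, 10.1, 4.08 and 5.14 CPM in WT and 45.2, 26.9, 25.2 and 21.2 in 5xFAD. In Card9-/- it was at 5.04, 2.9, 5.63 and 65.1 CPM, and in Card9-/-5xFAD at 19.1, 19.5, 16.9 and 36.4. The 11 monocyte markers, all listed, summed to 479 to 561 CPM in WT, 366 to 519 in Card9-/-, 211 to 297 in 5xFAD and 142 to 372 in Card9-/-5xFAD. The 10 border-associated macrophage markers, all listed, summed to 1126 to 1762, 1056 to 1964, 641 to 875 and 443 to 1863 CPM in the same order. Both lists overlapped between Card9-/-5xFAD and Card9-/-, and not between 5xFAD and WT. They are not separate measures, since F13a1 (43.9 to 299 CPM over all libraries) is in both. In WT replicate 4 it made 244 of the 479 CPM of the monocyte sum. The 17 early response and isolation genes had no such direction: they summed to 6533 to 11164 CPM in WT, 9186 to 12032 in Card9-/-, 3098 to 11004 in 5xFAD and 7635 to 14083 in Card9-/-5xFAD, with medians of 9399, 10160, 6831 and 12021 CPM. No gene of these lists was at 0 in every library. Their part in the member results was not tested.

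Libraries also differed in how level depended on transcript length. The slope of log2 CPM on log2 length, relative to the mean library, ran from −0.268 to 0.166 with the transgenes and from −0.141 to 0.367 without, lower slopes favoring short transcripts. With this slope as a covariate, Cyba (744 bases) had a log2 fold change of 0.54 ± 0.22 and Gpx1 (1072 bases) of 0.40 ± 0.23. Neither passed (edgeR adjusted p = 0.108 and 0.244), nor did the longer Sod2 (5861 bases, 0.41 ± 0.18, edgeR adjusted p = 0.137). Of the shorter genes, Gpx4 (959 bases, 0.65 ± 0.20), Prdx4 (990 bases, 1.66 ± 0.25) and Gsto1 (1182 bases, 1.41 ± 0.25) passed. So did Prdx1 (2294 bases, 1.15 ± 0.27), Prdx2 (1612 bases, 0.60 ± 0.22), Prdx6 (2387 bases, 1.01 ± 0.28) and Txnip (2795 bases, −0.51 ± 0.18). Srxn1 was called in addition (0.73 ± 0.28, edgeR adjusted p = 0.088). Thus 8 of 33 members passed in this fit, with 12 members and 4447 of all genes at an unadjusted p under 0.05 in edgeR. More of all genes also passed than in the main fit, as counted under the processing. The share of members was therefore closer to that of all genes than in the main fit.

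Without WT replicate 1, Card9-/- replicate 4 and Card9-/-5xFAD replicate 4, an alternative chosen after seeing the data, 18 of 33 members passed for the transgenes (54.5%), 16 higher and 2 lower, among 33% of 14465 genes. All 10 members called before were among the 18. The 8 added were Sod1 (0.95 ± 0.20), Txn1 (1.37 ± 0.30), Txn2 (0.59 ± 0.18), Prdx5 (0.62 ± 0.21), Slc7a11 (0.59 ± 0.22), Glrx (0.42 ± 0.16), Nfe2l2 (0.46 ± 0.15) and Sesn2 (−0.76 ± 0.31, SE; edgeR adjusted p from 0.00396 for Sod1 to 0.0908 for Sesn2). In these 13 libraries Cyba was again the 1 oxidase subunit that passed (1.14 ± 0.22), since Cybb, Ncf1, Ncf4 and Rac2 did not.

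The 3 libraries left out had a pattern of their own across the members. Txn1 was at 631, 910 and 1313 CPM there against 48.3 to 564 CPM in the other 13, and Sod1 at 207, 296 and 307 against 53.2 to 194 CPM. Rac2 was at 146, 116 and 103 CPM against 258 to 495, Txn2 at 69.5, 52.7 and 46.5 against 113 to 271, and Prdx3 at 43.7, 39.6 and 31.6 against 85.4 to 164 CPM. In all 3 of these libraries, 14 of the 33 members were the lowest of their genotype and 3 (Cyba, Sod1 and Txn1) the highest. Among all 14513 genes tested, 21.6% were lowest and 24.1% highest of their genotype in all 3, so many genes shared this pattern.

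**Figure D4:**
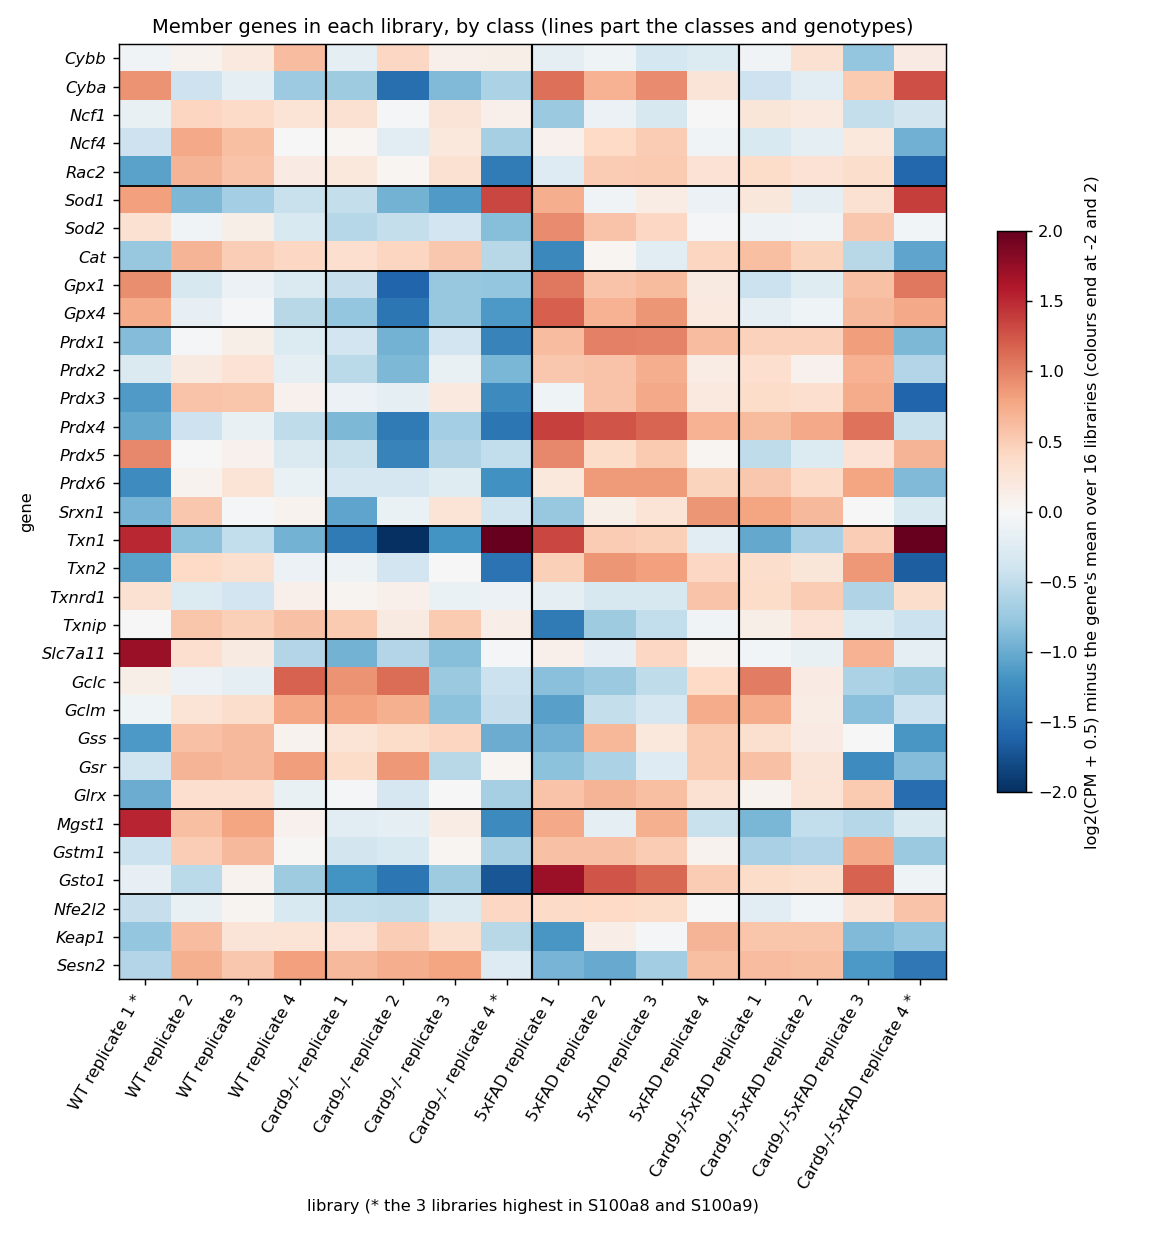
log2(CPM + 0.5) of the 33 members in each of 16 libraries, minus the gene's own mean, red above and blue below it, with the 3 libraries of highest S100a8 and S100a9 starred. In the starred columns Txn1 and Sod1 are red and Rac2, Prdx3 and Txn2 are blue, whatever the genotype.

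Taken within each Card9 genotype, fewer members passed. In 5xFAD against WT, 2 of 33 members rose, Prdx4 (1.63 ± 0.33 SE, edgeR adjusted p = 0.0167) and Gsto1 (1.53 ± 0.34, edgeR adjusted p = 0.0329), where 2.09% of all genes passed and 1.57% were higher. In Card9-/-5xFAD against Card9-/-, 3 of 33 rose, Prdx4 (1.69 ± 0.33, edgeR adjusted p = 0.0156), Gsto1 (1.74 ± 0.35, edgeR adjusted p = 0.0171) and Gpx4 (1.36 ± 0.34, edgeR adjusted p = 0.0745), where 1.97% of all genes passed and 1.49% were higher. These comparisons share no library, although their fit shares the estimate of the spread. When each pair of genotypes was fitted alone, Prdx4 and Gsto1 passed in 5xFAD against WT, and neither did in Card9-/-5xFAD against Card9-/- (edgeR adjusted p = 0.134 and 0.102). Gsto1 was lost in the first comparison without WT replicate 2, WT replicate 4 or 5xFAD replicate 1, and Gpx4 was lost in the second in 10 of 16 fits that left out 1 library. Without the 3 libraries of highest S100a8 and S100a9, 9 members passed in the first comparison (12.9% of all genes) and 10 in the second (10.3%).

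The members moved to the same side of 0 in both Card9 genotypes in 31 of 33 cases (93.9%), as did 81.4% of all genes. The exceptions were Slc7a11 and Gss, neither of which passed in either comparison. Whether the response differed by Card9 genotype was tested with an interaction term, which no member passed (0 of 33, with 1 at an unadjusted p under 0.05, and 0 by DESeq2). Of all genes, 0% passed in edgeR, with 78 at an unadjusted p under 0.05. Slc7a11 had the largest interaction among the members (1.30 ± 0.60 SE, edgeR adjusted p = 1), and the SEs of this term ran from 0.36 for Sod2 to 1.31 for Txn1, which limits the size of difference that this term could detect.

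**Figure D5:**
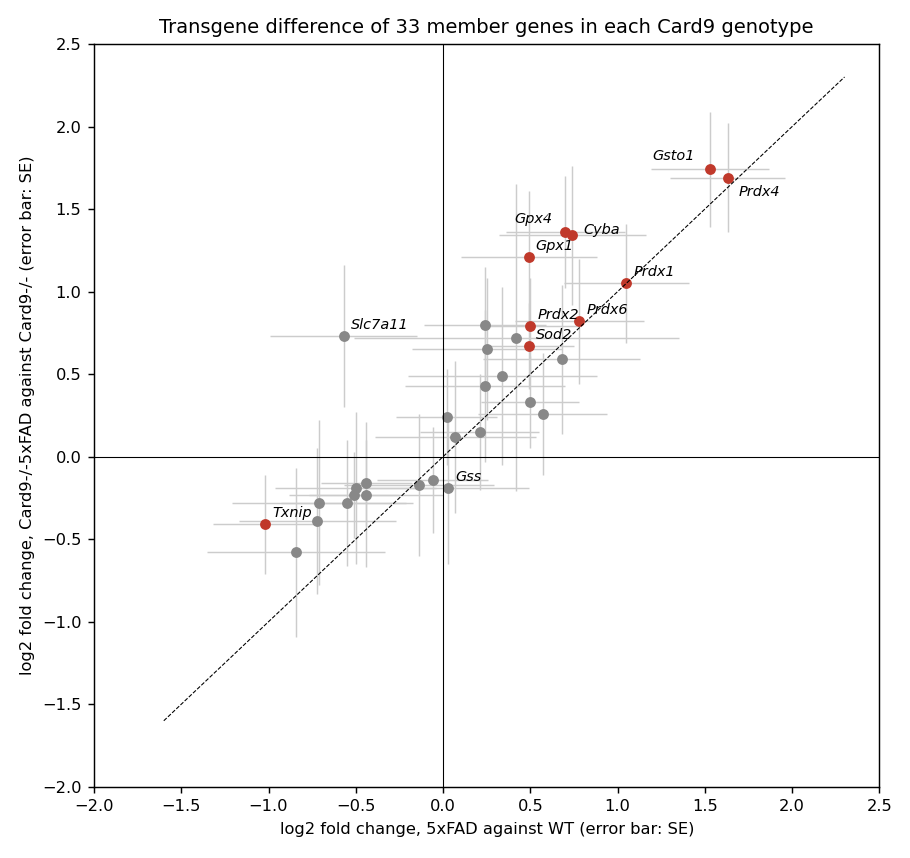
log2 fold change with the transgenes in Card9-/- (vertical) against that in WT (horizontal) for the 33 members, with SEs, red for the 10 that passed over both, and the dashed line marking equal change. Prdx4 and Gsto1 lie farthest up on both axes, and Slc7a11 and Gss are the 2 points with opposite signs.

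The Card9 genotype was compared in the same way, as the mean with and without the transgenes. No member passed (0 of 33 by edgeR, 0.0276% of all genes), and 11 (33.3%) had an unadjusted p under 0.05, as did 1323 of all genes (9.12%). DESeq2 called 1 member, Mgst1, a membrane-bound glutathione transferase (−1.08 ± 0.29 SE, DESeq2 adjusted p = 0.0766). Mgst1 was at 51.2, 26.6, 30.4 and 18.5 CPM in WT, 14.8, 15.2, 19.3 and 6.87 in Card9-/-, 29.9, 15.1, 28.8 and 12.7 in 5xFAD, with 8.98, 12.2, 11.6 and 14 in Card9-/-5xFAD. In edgeR its log2 fold change was −1.02 ± 0.27 (adjusted p = 0.496), the largest of the members, and the groups overlapped at the WT and 5xFAD replicates 4. Gsto1 was next (−0.81 ± 0.24, edgeR adjusted p = 0.496), with all Card9-/- libraries but 1 (53.1 CPM in replicate 3) below the lowest WT library (52.7 CPM).

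In the libraries labelled Card9-/-, all 7 peroxiredoxin and sulfiredoxin genes, both glutathione peroxidases and all 3 glutathione transferases had negative log2 fold changes without a call, with class medians of −0.46, −0.70 and −0.81. Over all members the median was −0.30, and 23 of 33 lay below 0, while the median over all genes was 0.13. Cybb (0.04 ± 0.19 SE) and Ncf1 (0.06 ± 0.18 SE) lay near 0, and Cyba (−0.63 ± 0.30 SE) and Ncf4 (−0.46 ± 0.22 SE) below it. The length slope of the Card9-/- libraries ran from −0.122 to 0.367, of WT from −0.141 to 0.186, of 5xFAD from −0.268 to 0.0674 and of Card9-/-5xFAD from −0.203 to 0.166. Its part in these values was not tested beyond the covariate fit, in which no member passed either.

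Without the transgenes, Card9-/- against WT gave 0 of 33 members (0% of all genes), with 8 members and 597 genes at an unadjusted p under 0.05, and DESeq2 called 0 members. With the transgenes, Card9-/-5xFAD against 5xFAD gave 0 of 33 (0% of all genes), with 1 member and 366 genes at an unadjusted p under 0.05, and DESeq2 called 0 members. Nfe2l2, Cat, Srxn1 and Gss lie on chromosome 2 with Card9, 49.3 to 129 megabases from it, and had log2 fold changes of −0.05, 0.05, −0.06 and −0.18 for the Card9 genotype.

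Around the members, 71 further genes of oxidant production and defense were counted, of which 60 were tested and 9 passed for the transgenes (15%), 5 higher and 4 lower, beside 11.3% of all genes. Higher were Arrdc4, an arrestin relative of Txnip (1.34 ± 0.24 SE, edgeR adjusted p = 0.00258), the glutathione transferases Gstm5 (1.16 ± 0.27, edgeR adjusted p = 0.0169) and Mgst3 (1.30 ± 0.35, edgeR adjusted p = 0.0346), the NRF2 partner Maff (1.57 ± 0.48, edgeR adjusted p = 0.0608) and the methionine sulfoxide reductase Msra (0.58 ± 0.20, edgeR adjusted p = 0.0892). Lower were the glutathione hydrolase Ggt5 (−0.95 ± 0.16, edgeR adjusted p = 0.00177), the sestrin Sesn1 (−0.92 ± 0.24, edgeR adjusted p = 0.0324), the mitochondrial NADPH source Nnt (−1.24 ± 0.33, edgeR adjusted p = 0.0368) and Arrdc3 (−0.91 ± 0.26, edgeR adjusted p = 0.0505). Nnt was at a low level in all libraries (1.26 to 9.35 CPM), as was Maff (0.882 to 16.5 CPM). Of the 5 oxidase partners and relatives tested, 0 passed, with 0 at an unadjusted p under 0.05 in edgeR. Of 14 NRF2 partners and targets outside the members, Maff alone passed, and heme oxygenase Hmox1 had 0.33 ± 0.25. None of the 60 passed for the Card9 genotype in edgeR (10 at an unadjusted p under 0.05).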

How the data were processed

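Bulk RNA of CD11b+ bead-sorted brain cells was sequenced in 16 libraries, 4 per genotype. Per the labels and the study's methods, reads were aligned to mm10 with HISAT2, filtered with SAMtools and counted with HTSeq. The deposited values are raw counts per gene, 55385 genes by 16 libraries, with no normalization by the authors. The gene annotation and the strand setting of the counting are not given in the sources used here. The authors' own tests used DESeq2.

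Counts were tested with edgeR 4.0.16 (quasi-likelihood, TMM, filterByExpr with a minimum count of 10, 1 term per genotype, all 16 libraries), with p-values adjusted by Benjamini-Hochberg over all 14513 genes tested and a threshold of 0.1. The fit was tested on simulated data. DESeq2 1.42.0 and its size factors, no filter, a threshold of 0.05, a replicate block, a length covariate, pairs of genotypes alone and leaving out libraries were alternatives. Total counts of 2970148 to 19333325 per library limit precision for members of low level. Replicates are numbered libraries that are not stated to be separate animals, so p-values measure the spread between these libraries. Lengths and positions are from the GENCODE annotation of GRCm38 (mm10), promoters from RefSeq.

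Values in every library are given for members past the threshold in any comparison, for the member of highest mean CPM in each class, and for the 2 members of largest fold change in each of the 2 mean comparisons. Further pathway genes are named where they passed for the transgenes. The members and gene lists were chosen with earlier results of these data known.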

Additional observations from a re-analysis of the deposited data

Results flagged for a closer look

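In each genotype the highest or lowest of the 4 libraries was compared with the other 3 for each member, and 16 of 136 groups (11.8%) held a library far from the rest by Dixon's test, where chance gives about 5%. In Card9-/-5xFAD replicate 4, Rac2 was lowest at 103 CPM (others 376 to 398) and Txn1 was highest at 1313 CPM (others 109 to 314). In WT replicate 1, Sod1 was highest at 207 CPM (others 62.6 to 85.7), Gpx1 was highest at 3030 CPM (others 1271 to 1458) and Txn1 was highest at 631 CPM (others 115 to 158). In Card9-/- replicate 4, Sod1 was highest at 296 CPM (others 53.2 to 84.3), Prdx6 was lowest at 31.4 CPM (others 58.3 to 62.1), Txn1 was highest at 910 CPM (others 48.3 to 96.7) and Gss was lowest at 5.89 CPM (others 15 to 16.6). In Card9-/-5xFAD replicate 3, Sod2 was highest at 120 CPM (others 77 to 79.7), Slc7a11 was highest at 17.6 CPM (others 9.21 to 10.2) and Gstm1 was highest at 69 CPM (others 24 to 26.8). In 5xFAD replicate 4, Txnrd1 was highest at 42.6 CPM (others 22.7 to 25), Nfe2l2 was lowest at 393 CPM (others 501 to 512) and Sesn2 was highest at 21.1 CPM (others 6.58 to 8.27). In WT replicate 4, Gclc was highest at 78.4 CPM (others 30.1 to 37.3). Of these, 9 fell in the 3 libraries with the highest S100a8 and S100a9, WT replicate 1, Card9-/- replicate 4 and Card9-/-5xFAD replicate 4. The share flagged over all genes was not computed. Among all genes tested, 21.6% were lowest and 24.1% highest of their genotype in all 3 of these libraries. The groups are thus not independent, and the 11.8% cannot be read as a trait of the members.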

How the results depend on the processing

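Members called for the transgenes numbered 10, against 5 with no filter or at a threshold of 0.05 and 8 with the length covariate. They numbered 18 with 3 libraries left out (chosen after seeing the data), and 4 to 13 with 1 library left out. All genes called were 1647, against 1070 with no filter, 3152 with the length covariate, 2487 by DESeq2, 4776 with 3 libraries left out, 920 at 0.05 and 955 to 3053 with 1 left out. In 5xFAD against WT, 2 members became 4 by DESeq2, 9 with 3 libraries left out and 1 to 2 with 1 left out, and 304 genes became 789 with the length covariate, 565 by DESeq2, 1864 with 3 libraries left out and 164 to 386 with 1 left out. In Card9-/-5xFAD against Card9-/-, 3 members became 6 by DESeq2, 0 in a fit of these 8 libraries alone, 10 with 3 libraries left out and 2 to 4 with 1 left out. Genes there went from 286 to 185 with no filter, 688 with the length covariate, 812 by DESeq2, 96 in the 8 libraries alone, 1494 with 3 libraries left out, 162 at 0.05 and 120 to 720 with 1 left out. For the Card9 genotype over both backgrounds, 0 members became 1 by DESeq2, and 4 genes became 2 with DESeq2 size factors, 53 by DESeq2, 2 with 3 libraries left out, 2 at 0.05 and 0 to 8 with 1 left out. Card9-/- against WT had 0 genes, but 2 with no filter, 3 with the length covariate, 5 by DESeq2 and 0 to 1 with 1 library left out. Card9-/-5xFAD against 5xFAD had 0, but 1 with no filter, 2 by DESeq2 and 0 to 1 with 1 left out, and the interaction had 0, but 1 by DESeq2 and 0 to 1 with 1 left out. No fold change of a called member reversed under any alternative run, and the cause of the other moves was not tested.

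With a replicate block the member counts were 10, 2 and 3 in the 3 transgene comparisons and 1871, 306 and 340 of all genes, so no member call changed. The numbers were not taken to pair the libraries: same-numbered libraries correlated from −0.71 to 0.734 (median 0.141), and 5 of 16 correlated best with their own number. Low depth in Card9-/- replicate 4 and Card9-/-5xFAD replicate 4 limits members with few counts, such as Nqo1.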
